A study of Homo sapiens with 288 samples.

Results

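The integrin and laminin genes were followed through 288 single-cell libraries. Members were all genes of the deposited tables whose symbol names an integrin alpha chain, an integrin beta chain or a laminin alpha, beta or gamma chain. This gave 38 of 17492 listed genes, of which 18 encode integrin alpha chains, 8 integrin beta chains, 5 laminin alpha chains, 4 laminin beta chains and 3 laminin gamma chains. The libraries came from 96 single cells of the H1 human embryonic stem cell line, 45 of them differentiated to endothelial cells (EC) and 51 to trophoblast-like cells (TB). EC were started in E8 medium with BMP4 at 5 ng/ml and Activin A at 25 ng/ml for 2 days and then received VEGF and WNT for 3 days. TB were grown in E8 without FGF2, with BMP4 at 50 ng/ml and the inhibitor SB431542. Every cell carries the H1 genotype, so EC and TB differ by the whole differentiation protocol and not by a single agent. The stored cDNA of each cell was used at an equal input in the experiments EQ, EQ-Vary and EQ-75%. EQ and EQ-Vary are described as differing in the volumes pooled, while EQ-75% repeated the whole preparation with less sequencing. EC cells 1, 14 and 41 and TB cells 4, 28 and 48 had at most 45821 counts in both EQ and EQ-Vary and at least 231125 in EQ-75%. The unEQ libraries were not analysed here.

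Integrins are receptors made of an alpha and a beta chain that join the cytoskeleton to proteins outside the cell. The pairing sets the ligand. For example, ITGA5 with ITGB1 binds fibronectin, ITGAV pairs bind RGD-containing proteins, and ITGA6 with ITGB1 or ITGB4 binds laminin. Laminins are secreted trimers of an alpha, a beta and a gamma chain that build the basement membrane, the sheet under endothelia and epithelia. LAMA4 is known as a chain of vessel basement membranes and LAMA1 of early embryonic ones.

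Values are CPM, the rounded expected count of a gene per 1000000 counts of its cell, so they give a share of the library and not molecules per cell. After libraries outside the study's limits on total count and on the 50 top genes were set aside, 38 EC and 48 TB cells of EQ remained, and their total counts ran from 471593 to 3966801 in EC and from 365570 to 3479240 in TB. All EC cells stand for 1 sample and all TB cells for another, so SDs are between cells and differences between EC and TB have no test. The labels were checked on marker lists. Of 14 endothelial markers with an average of at least 1 CPM, 14 were higher in EC by more than 2-fold, and of 12 trophoblast markers 10 were higher in TB. CDX2 and TP63 were counted in 2.08% and 10.4% of TB cells. Of 6 fibroblast and smooth muscle markers, 5 were also higher in TB, and their summed level had a median of 1538 CPM in TB and 25.4 CPM in EC, with ranges of 242 to 3399 and 2.00 to 782. COL3A1 and DCN, matrix genes of fibroblasts, averaged 735 ± 458 and 429 ± 566 CPM in TB and 2.41 ± 2.72 and 1.87 ± 1.97 in EC. The part of such a program in the TB values below was not tested. Of the stem cell markers, 3 of 5 were higher in EC and 1 in TB, with SOX2 at 0 counts in EC. NANOG, LIN28A and DPPA4 were counted in 100% of cells of both types, and POU5F1 in 100% of EC and 95.8% of TB cells. LIN28A averaged 279 ± 180 CPM in EC and 287 ± 189 in TB. The summed level of these markers had a median of 409 CPM in EC and 408 in TB.

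Some members of both families were higher in EC and others in TB. Of the 29 members with an average of at least 1 CPM over EC and TB, 12 had a mean CPM more than 2-fold higher in EC, beside 19.2% of all 12351 genes tested, and 7 were more than 2-fold higher in TB, beside 26.2% of all genes. The TB count was 24.1% of the members, near the share of all genes. By the median over cells, 6 of 22 members were higher in EC, beside 14.6% of all genes, and 8 in TB, beside 34.4%. The median log2 ratio of EC over TB was 0.51 for the 29 members and -0.06 for all genes. The 12 genes were ITGA1, ITGA4, ITGA5, ITGA8, ITGA9, ITGA10, ITGAX, ITGB1, ITGB2, ITGB8, LAMA4 and LAMC3, and among the 7 genes were ITGB4, ITGB5, ITGB6, LAMA1, LAMA5 and LAMB1. By chain, 7 of 13 tested integrin alpha chains were higher in EC and 0 in TB, and the 6 tested integrin beta chains were divided 3 and 3. Of the 10 tested laminin chains 2 were higher in EC and 4 in TB. The values of single cells overlapped between EC and TB for every member. The difference of the means was larger than the larger SD between cells for 2 of the 29, ITGA5 and ITGB1, and for 3.19% of all genes tested.

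**Figure D1:**
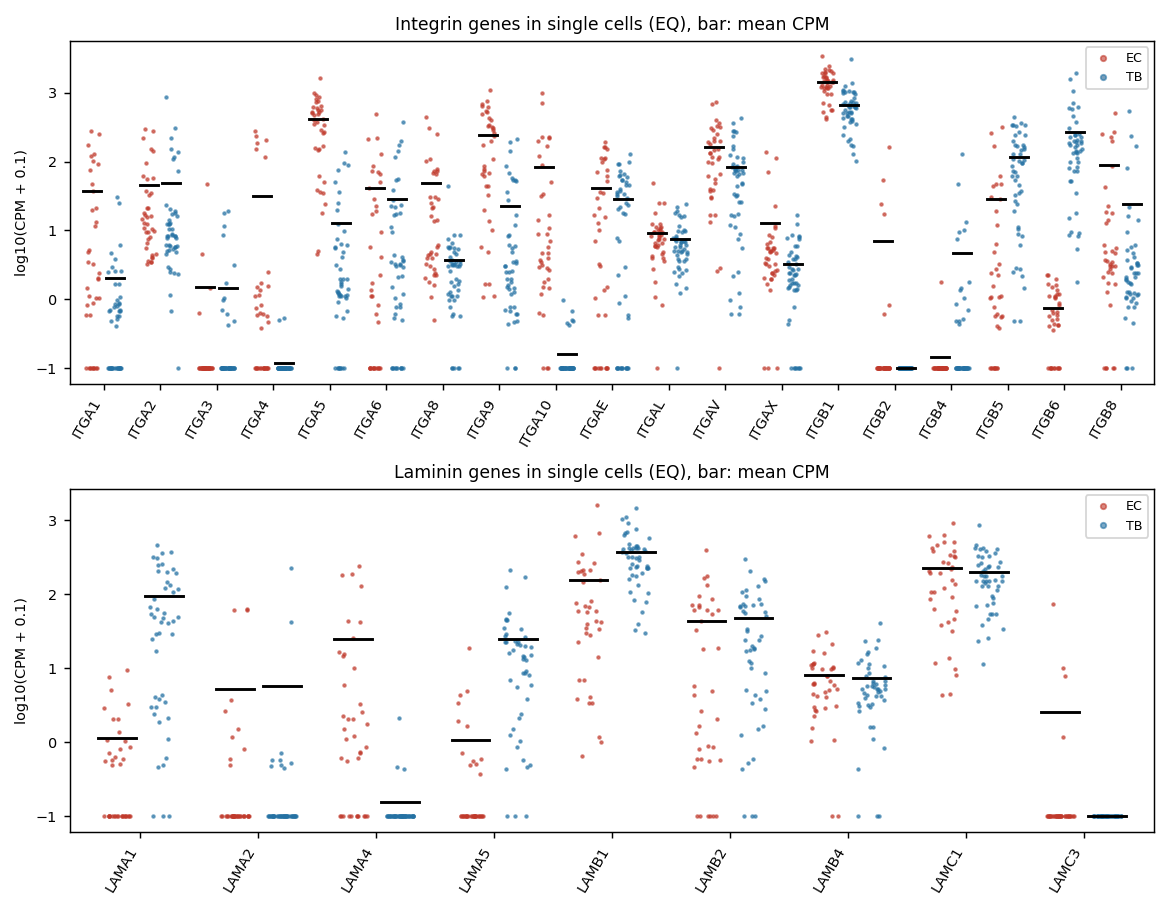
Level of 28 tested members in each passing cell of EQ, as log10(CPM + 0.1), with EC in red on the left, TB in blue on the right and a black bar at the mean CPM of the cells. Points at the bottom are cells with 0 counts. Only 1 TB cell of ITGB6 lies at or below the highest EC cell, while ITGB1 and LAMC1 were counted in all cells of both types.

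Summed over the 26 integrin genes, EC cells had from 1013 to 5179 CPM with a median of 2839, and TB cells from 290.0 to 4558 with a median of 1099. The 2 ranges overlapped, but 37 of 38 EC cells lay above the TB median and only 3 of 48 TB cells above the EC median. The 12 laminin genes went the other way. Their sum was 39.9 to 1918 CPM in EC with a median of 391, and 175 to 2155 CPM in TB with a median of 785. Here 42 of 48 TB cells lay above the EC median. The ratio of the integrin sum to the laminin sum of a cell had a median of 6.55 in EC and 1.52 in TB, and 2 TB cells exceeded the EC median. The integrin sum leans on ITGB1, and the laminin sum on LAMB1 and LAMC1, so neither stands for its whole family.

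**Figure D2:**
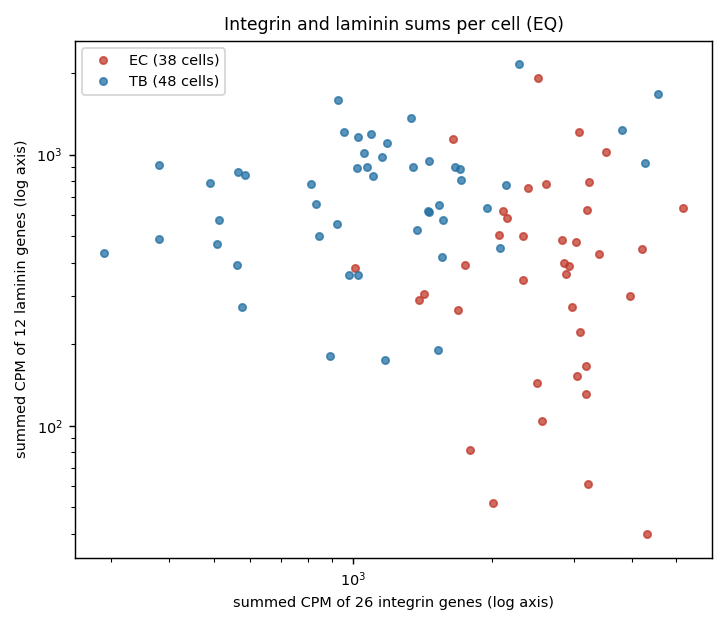
Summed CPM of the 26 integrin genes (x axis, log scale) and of the 12 laminin genes (y axis, log scale) in each passing cell of EQ. EC cells (red, n = 38) lie to the right, with an integrin median of 2839 CPM, and TB cells (blue, n = 48) lie mostly to the left and higher, with a laminin median of 785 CPM.

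ITGA5, the alpha chain of the fibronectin receptor, was the leading integrin alpha chain of EC. Its level ran from 4.48 to 1644 CPM in EC with a median of 391, and from 0 to 136 CPM in TB with a median of 1.53. No TB cell reached the EC median, and 9 of 38 EC cells lay below the highest TB cell. The means were 418 ± 352 CPM (SD, n = 38 cells) and 12.9 ± 28.6 (n = 48), a 32.4-fold difference that rests on 34642 counts in EC and 1377 in TB. The gene lies on chromosome 12 from 54395261 to 54419266 on the minus strand (GRCh38, GENCODE v44).

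ITGA9, the alpha chain that pairs with ITGB1 to bind tenascin and VEGF-C, was spread more widely. EC cells ranged from 0.978 to 1087 CPM with a median of 142 and TB cells from 0 to 215 with a median of 2.70. The means were 247 ± 267 and 22.7 ± 47.2 CPM, a 10.9-fold difference, and 21 EC cells lay below the highest TB cell. More than 100 CPM was reached by 20 EC cells and 3 TB cells.

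Of the other alpha chains that were higher in EC, several were high in a few cells. ITGA10, a collagen receptor chain, ran from 0 to 995 CPM in EC with a median of 5.10, and TB cells held 6 counts in all, with 0.861 CPM at most. Its mean of 84.0 ± 200.3 CPM in EC (n = 38) therefore stands against 0.0606 ± 0.175 in TB (n = 48), and 8 EC cells exceeded 100 CPM. ITGA4, which with ITGB1 binds VCAM1 and fibronectin, was close to an all-or-none gene in EC: 6 cells were above 100 CPM, no other cell was above 10 CPM, and 17 cells had 0 counts. The ratio of its summed counts, 2773 in EC and 2 in TB, was 1709 with a 95% counting interval of 473 to 14120. The ligand VCAM1 itself was at 0 counts in both types.

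ITGA1 and ITGA8, chains that pair with ITGB1 for collagen and for RGD ligands, had means of 36.7 ± 69.4 and 48 ± 92.3 CPM in EC, and 1.94 ± 5.54 and 3.65 ± 6.43 in TB. The EC medians were 2.14 and 9.75 CPM and the TB medians 0.473 and 2.93, so most cells of both types lay low. ITGAX, a leukocyte chain, had 12.6 ± 29.3 CPM in EC and 3.17 ± 3.32 in TB. Values of these genes are touched by shared reads, as described below. ITGAV, the alpha chain of RGD receptors, missed the limit at 1.97-fold, with a median of 117 CPM in EC and 64.2 in TB and means of 165 ± 173 and 83.5 ± 98.8.

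The remaining tested alpha chains were within 2-fold of equal. ITGA6, a laminin receptor chain, had 41.1 ± 93.7 CPM in EC and 28.6 ± 68.4 in TB, but its medians, 1.46 and 3.09 CPM, were in the reverse order. ITGAE, the alpha chain of an E-cadherin receptor, was counted in 73.7% of EC and 72.9% of TB cells, with medians of 11.4 and 21.1 CPM. ITGA2, a collagen receptor chain, averaged 45.3 ± 74.8 and 48.5 ± 137 CPM, and TB cell 33 alone held 37.7% of the summed TB level. ITGA3, a laminin receptor chain, had means of 1.43 and 1.35 CPM, with 88.3% of the EC sum in EC cell 20. ITGAL, a leukocyte chain, averaged 9.03 ± 8.51 and 7.28 ± 5.53 CPM.

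The choice of chain also showed within single cells. Compared per kilobase of the canonical transcript, ITGA5 was the highest integrin alpha chain in 25 of 38 EC cells, followed by ITGA9 in 5 and ITGAV in 3. In TB no chain led in most cells: ITGAE was highest in 14 of 48 cells, ITGAV in 13, ITGA2 in 8 and ITGA6 in 5. ITGB7, the listed partner of ITGAE, was at 0 counts in both types, and ITGA2 values are touched by shared reads, as described below. In mean CPM per kilobase, ITGA5 made up 46.1% of the alpha chain total of EC and 7.65% of that of TB, and ITGAV 10.98% and 29.9%.

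ITGB1, the common beta chain with which most alpha chains pair, was the highest member per kilobase in both types. It was counted in all cells, from 416 to 3396 CPM in EC with a median of 1432 and from 101 to 3106 CPM in TB with a median of 616. The mean was 2.11-fold higher in EC, 1420 ± 619 against 674 ± 472 CPM, just past the limit, and 1 TB cell lay above the EC median.

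ITGB6, which pairs with ITGAV in epithelia and activates latent TGF-beta, had the largest ratio of mean CPM among the members higher in TB. TB cells ran from 1.67 to 1959 CPM with a median of 158, and EC cells from 0 to 2.14 with a median of 0.477. Only 1 of 48 TB cells lay at or below the highest EC cell. The means were 268 ± 383 CPM in TB and 0.643 ± 0.629 in EC, a 416-fold difference, and 31 TB cells exceeded 100 CPM. A count of ITGB6 was present in 71.1% of EC cells (exact 95% interval 54.1 to 84.6%), but none held 5 counts. Markers of the other type were also counted, in shares that differed widely: the trophoblast marker VTCN1 was 314-fold higher in TB and counted in 100% of EC cells at a median of 3.24 CPM, and the endothelial marker KDR was 375-fold higher in EC and counted in 100% of TB cells at a median of 2.36 CPM, at median depths of 2025145 counts in EC and 1968545 in TB. HAND1 was counted in 65.8% of EC cells and KRT7 in 7.89%, both trophoblast markers, and the endothelial marker TIE1 in 12.5% of TB cells. The ITGB6 share of EC lies between those of HAND1 and VTCN1. The source of these counts, and whether they are expression in EC, was not tested.

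ITGB5, another partner of ITGAV, ran from 0.376 to 449 CPM in TB with a median of 79.6 and from 0 to 320 CPM in EC with a median of 0.989. Its means were 116 ± 119 and 28.3 ± 70.5 CPM, a 4.08-fold difference. ITGB4, the partner of ITGA6 in hemidesmosomes, was seen in 16 of 48 TB cells, where TB cell 38 held 57.7% of the sum, and as 1 count in EC. The ratio of 559 to 1 counts was 453 in TB over EC, with a counting interval of 81.1 to 17943. ITGB8, a further ITGAV partner, averaged 90.0 ± 285 CPM in EC and 24.2 ± 86.9 in TB, and 49.1% of the EC sum lay in EC cell 4.

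ITGB2, the beta chain of leukocyte integrins, was counted in 6 of 38 EC cells, with 62.7% of its level in EC cell 28 at 163 CPM, and in 0 of 48 TB cells, which allows a share of up to 6.25% if 3 cells are taken as the limit and 7.40% by the exact 95% binomial interval. Against a floor of 3 counts over the TB group, its EC mean of 6.82 ± 27.7 CPM was at least 220-fold higher in EQ (log2 7.78). The size of this bound depends on the setting. Over the settings compared, the log2 ratio ran from 6.39, without the highest cell, to 7.89. In EQ-75% it was 6.43, which is a plain ratio and not a bound, because 1 TB cell had a count of ITGB2 there. The leukocyte markers SPI1 and CD3E were at 0 counts in both types, CSF1R averaged 0.0129 CPM in EC and 2.40 in TB, and PTPRC averaged 18.9 ± 23.8 and 12.9 ± 14.8 CPM. The summed level of the leukocyte markers ranged from 0 to 104 CPM in EC and from 0 to 85.2 in TB. Leaving ITGB1 aside, the highest beta chain per kilobase was ITGB6 in 34 and ITGB5 in 14 of 48 TB cells. In EC it was ITGB5 in 17 and ITGB8 in 15 of 38 cells, and 4 of the ITGB5 cells led with fewer than 5 counts.

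LAMA4, the chain of vessel basement membranes, ran from 0 to 244 CPM in EC with a median of 1.27, and 10 cells were above 10 CPM. TB cells held 3 counts in all, so the ratio of the summed counts was 601 with a counting interval of 205 to 2916. The EC mean was 24.7 ± 58.7 CPM (n = 38). LAMA1 showed the reverse, with 0 to 470 CPM and a median of 46.1 in TB and 0 to 9.33 CPM and a median of 0.198 in EC. Its means were 94.9 ± 119.8 and 1.05 ± 2.07 CPM, a 90.4-fold difference, and no EC cell reached the TB median.

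LAMA5, a chain found widely in mature epithelial and vessel basement membranes, was also higher in TB, by 25.6-fold. Its median was 14.5 CPM in TB and 0 in EC, its highest cells were at 217 and 18.6 CPM, and its means were 25.0 ± 41.6 and 0.975 ± 3.15. LAMA2, the chain of muscle laminin, averaged 5.15 ± 16.8 CPM in EC and 5.68 ± 33.3 in TB, where TB cell 50 held 83.4% of the sum. Per kilobase, LAMA4 was the highest laminin alpha chain in 20 of 38 EC cells, 14 of them with at least 5 counts, and 4 EC cells had no count of any laminin alpha chain. In TB the highest was LAMA1 in 32 and LAMA5 in 15 of 48 cells.

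LAMB1, the beta chain of the early laminins, ran from 30.3 to 1480 CPM in TB with a median of 321 and from 0.556 to 1637 in EC with a median of 58.9. Its means were 378 ± 296 and 156 ± 292 CPM, a 2.42-fold difference, and 4 EC cells lay above the TB median. LAMC1, the gamma chain of most laminins, was counted in every cell, at 227 ± 216 CPM in EC and 202 ± 158 in TB, with medians of 175 and 154. LAMB2, found in mature vessel and muscle laminins, had close means of 43.4 ± 76.3 and 48.1 ± 61.4 CPM and distant medians of 4.52 and 22.1. LAMB4 averaged 7.95 ± 7.08 and 7.23 ± 7.53 CPM.

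LAMC3, a further laminin gamma chain, was counted in 4 EC cells and 0 TB cells, with a mean of 2.44 ± 12.1 CPM in EC that is at least 78.7-fold above a floor of 3 counts over the TB group. EC cell 19 held 79.8% of that sum. The size of this bound depends on the setting as well. Over the settings compared, the log2 ratio ran from 4.03, without the highest cell, to 8.02 in EQ-Vary, beside 6.30 in EQ. The EQ-Vary value is a plain ratio and not a bound. There 1 TB cell had a count of LAMC3, which gave a TB mean of 0.00771 CPM, and the floor was not used.

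The 9 members below an average of 1 CPM were ITGA2B, ITGA7, ITGA11, ITGAD, ITGAM, ITGB3, ITGB7, LAMA3 and LAMB3, with means from 0 to 0.709 CPM. ITGA11, ITGAD, ITGB7 and LAMA3 had 0 counts in all 38 EC and 48 TB cells, which allows shares of up to 7.89% and 6.25% of cells with a count if 3 cells are taken as the limit, and 9.25% and 7.40% by the exact 95% binomial interval. The platelet integrin chains were nearly unseen: ITGA2B had 2 counts in EC and 19 in TB, all in TB cell 49, and ITGB3 had 53 in EC, 98.7% of its level in EC cell 22. Of the megakaryocyte markers, GP9 and PPBP were at 0 counts. The summed level of that list was 0 to 129 CPM in EC and 0 to 36.2 in TB.

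The EC and TB levels were also compared in the other libraries of the same cells. EQ-Vary gave 12 members higher in EC and 7 in TB, beside 19.4% and 26.3% of all genes, and EQ-75% gave 13 and 7, beside 18.3% and 27.1%, where ITGAV joined the first set at a log2 ratio of 1.12. All 3 experiments used the cDNA of the same cells, so neither EQ-Vary nor EQ-75% adds cells, and only EQ-75% is described as a repeat of the library preparation.

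**Figure D3:**
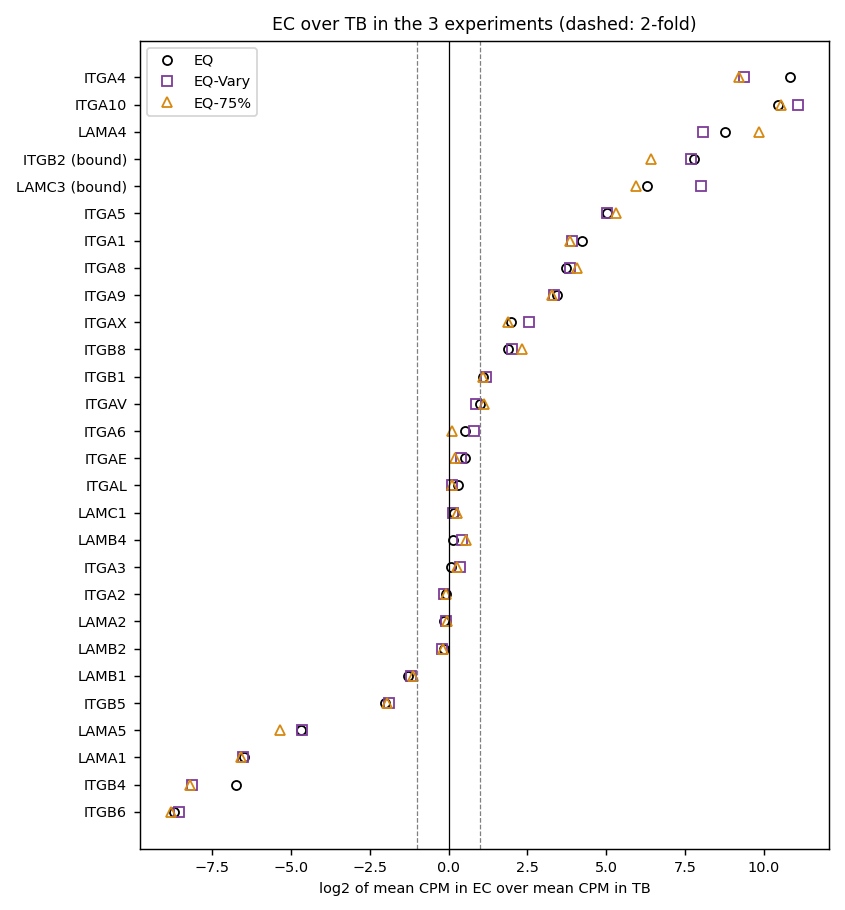
Log2 ratio of mean CPM in EC over mean CPM in TB (x axis) for 28 tested members, in EQ (circles), EQ-Vary (squares) and EQ-75% (triangles). Dashed lines mark 2-fold, and ITGB2 and LAMC3 are bounds because TB had no counts in EQ. The 3 marks of a gene lie close together except where a group has few counts, as for ITGB4, LAMA4 and ITGA4.

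Over cells that passed in both experiments, 0 members differed by more than 2-fold between EQ and EQ-75% or EQ-Vary, with 24 or 25 members tested. In EQ-75%, 0.797% of all genes passed that limit in EC and 0.219% in TB, and in EQ-Vary 0.0174% and 0.0252%. Member ratios of EQ-75% over EQ ran from 0.851 (ITGAE) to 1.25 (ITGAV) in EC and from 0.756 (ITGA5) to 1.34 (ITGA1) in TB. The number of members with a count in a cell was 20.1 ± 2.36 in EC and 20.1 ± 1.83 in TB in EQ, from 14 to 24 in each type. It was lower in EQ-75% by a mean of 1.51 ± 2.29 members per EC cell (SD of the differences, n = 37 cells) and 0.511 ± 2.02 per TB cell (n = 47). The number was lower in 24 and higher in 7 EC cells, and lower in 23 and higher in 13 TB cells. Counting only members with at least 5 counts, the difference was -1.54 ± 1.37 in EC, with 28 cells lower and 1 higher, and -0.809 ± 1.69 in TB. After both libraries of a cell were thinned to the lower of their depths, the differences in members with any count were -0.673 in EC and -0.249 in TB. For EQ-Vary the number was lower by 0.5 ± 2.09 in EC (n = 38) and 0.5 ± 1.75 in TB (n = 46).

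How far a member varied between cells could be set against the 2 libraries of the same cell. In EQ and EQ-75%, the median SD between libraries of a cell was 0.459 in EC, over 22 members counted in at least 50% of cells, and 0.443 in TB over 21 members, on the log2(CPM + 1) scale. The SD between cells was 2.37 and 2.03. Over all genes the medians were 0.441 and 2.04 in EC and 0.402 and 1.97 in TB. ITGA9 in EC had 0.227 between libraries and 2.70 between cells, and ITGB6 in TB 0.217 and 2.11. For both genes the libraries of a cell lay closer together than different cells did. ITGB6 in EC differed from this, with 0.532 between libraries and 0.520 between cells. Of 37 EC cells, 12 had an ITGB6 count in both libraries, 14 in EQ only, 3 in EQ-75% only and 8 in neither.

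**Figure D4:**
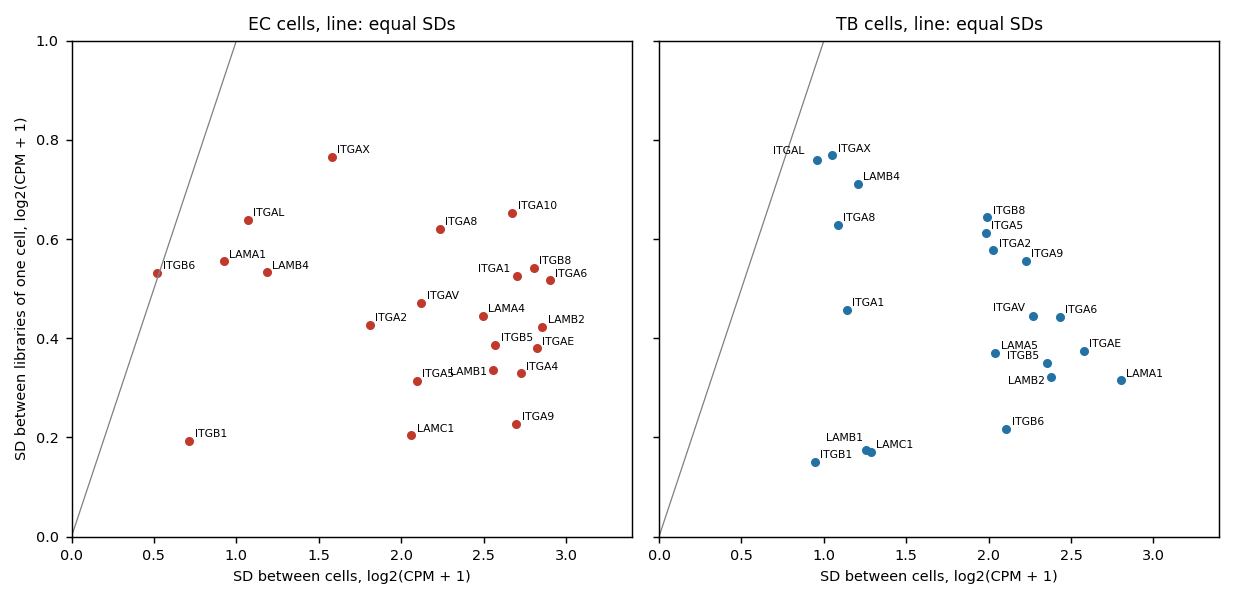
SD between cells (x axis) and SD between the EQ and EQ-75% libraries of the same cell (y axis), both on the log2(CPM + 1) scale, for members counted in at least 50% of EC cells (left, 22 members) or TB cells (right, 20 members drawn). The line marks equal SDs. ITGB6 in EC lies on the line, and ITGAX and ITGAL lie nearest to it in TB. In EC, ITGA9, LAMC1 and LAMB1 lie far to the right of the line.

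Set against the variance that all genes of the same mean level have, members varied in EC at a median ratio of 1.28 (30 members, all genes 1.05) and in TB at 0.958 (26 members, all genes 1.04). In EC the ratio was above 2 for 2 members, ITGA9 (2.37) and ITGA5 (2.24). ITGB1 was even in EC, with a ratio of 0.641. In TB the members with the highest ratio on abundant counts were ITGB6 (1.97) and LAMA1 (1.88). These ratios are for log2 values with 1 added to the scaled counts. With 10 added, the median was 1.41 in EC (27 members, all genes 1.09) and 1.12 in TB (24 members, all genes 1.10). The TB median of members then lay above that of all genes. No p-value goes with any of these ratios, which describe cells of 1 sample.

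The chains of a complex were sought in the same cell. ITGA5 and ITGB1 were counted together in 38 of 38 EC cells and 40 of 48 TB cells (83.3%, exact interval 69.8 to 92.5%), and with at least 5 counts of each chain in 97.4% and 35.4%. ITGA10 and ITGB1 met in 92.1% of EC and 12.5% of TB cells, and ITGA4 and ITGB1 in 55.3% and 4.17%. ITGAV and ITGB6 met in 48 of 48 TB cells and, at 5 counts, in 83.3% of TB and 0% of EC cells. ITGA6 and ITGB4 met in 12 TB cells and 0 EC cells.

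Among laminins, LAMA4, LAMB1 and LAMC1 met in 71.1% of EC cells and 6.25% of TB cells. LAMA5, LAMB1 and LAMC1 met in 31.6% and 93.8%, and LAMA1, LAMB1 and LAMC1 in 50.0% and 93.8%. At 5 counts the last 2 trimers were each complete in 7.89% of EC cells and in 72.9% and 79.2% of TB cells. With any count taken as enough, a cell held the chains of a median of 11 of 24 listed integrin pairs in EC and 10 in TB. For laminin trimers the median was 4 of 9 in each. At 5 counts ITGAV and ITGB6 met in 0% instead of 68.4% of EC cells. ITGA1 and ITGB1 then met in 10.4% instead of 58.3% of TB cells. The medians are not given at 5 counts, so they do not show that EC and TB hold equal sets. The chains counted are transcripts in a cell, and no protein was measured.

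**Figure D5:**
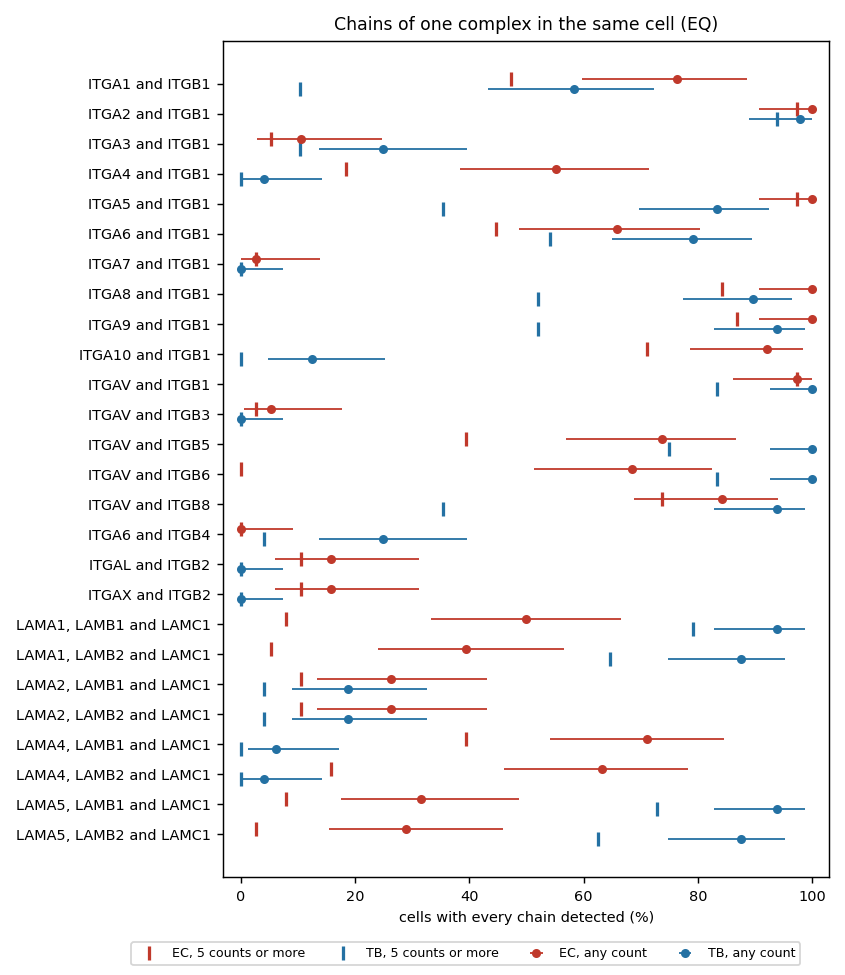
Share of passing EQ cells in which every chain of a complex was counted (dots, with exact 95% binomial intervals that cover counting error only) and in which every chain had at least 5 counts (ticks), for EC (red, n = 38) and TB (blue, n = 48). Complexes never complete in either type are left out. The LAMA4 trimers and the ITGA4 and ITGA10 pairs stand higher in EC, and the LAMA1 and LAMA5 trimers stand higher in TB.

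Levels of chains of the same complex went together only weakly between cells. The median Spearman correlation of log2(CPM + 1) was 0.0522 for 20 such pairs and 0.0348 for 211 other member pairs over 38 EC cells, and 0.113 for 18 and 0.106 for 192 pairs over 48 TB cells. The order was reversed in EQ-75%, with medians of 0.00307 for pairs of the same complex and 0.0494 for other pairs in EC. The TB medians there were 0.0764 and 0.101. With Pearson correlation or scran factors in EQ, pairs of the same complex stayed slightly higher in both types. Which kind of pair was higher thus depended on the experiment. The points share library and depth, and the values are descriptions. The highest pairs were ITGAX and LAMB4 (0.495), ITGA2 and ITGA8 (0.440) and ITGA5 and ITGB5 (0.425) in EC, and ITGAL and LAMB2 (0.512), ITGA2 and ITGB6 (0.507) and LAMB2 and LAMB4 (0.478) in TB. In EQ-75% the 3 EC values were 0.291, 0.284 and 0.202. The 3 TB values there were 0.4998, 0.570 and 0.268. Every pair named here except ITGA5 and ITGB5 holds a gene whose low values were mostly not whole, as described below (ITGAX, LAMB4, ITGA2, ITGA8 or ITGAL). What shared reads add to these correlations was not tested.

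Some member counts are shared with other genes, because RSEM divides a read that maps to several genes. ITGA1, ITGA2, ITGA8, ITGAL, ITGAX, ITGB8 and LAMB4 had values that were not whole in at least 90% of their entries between 0 and 20, against a median of 12.5% over genes and 24.7% of genes at or above 90%. The 2 measures of sharing did not always go together: LAMB4 had 0 stretches of 51 bases that matched another gene, while ITGA4 had 2771, 41.2% of its transcript, and 0% of its entries not whole. In 5 of them (ITGA2, ITGA8, ITGAL, ITGAX and ITGB8) from 115 to 164 stretches of 51 bases after the coding sequence matched another protein-coding gene with at most 2 mismatches. ITGAL was counted in 97.9% of TB cells although its partner ITGB2 was at 0 counts there. Members also share sequence with each other. ITGAX and ITGAM are identical over 70 coding bases in exon 13 of each, chr16:31362984-31363053 in ITGAX and chr16:31297563-31297632 in ITGAM (GRCh38, plus strand). ITGAX and ITGAD are identical over 83 coding bases that cross from exon 28 to exon 29, between positions 31380543 and 31380897 of chromosome 16 in ITGAX. Both stretches are longer than the 51 bases of a trimmed read and are shown for that reason, in lower case with no part marked:
ITGAX and ITGAM: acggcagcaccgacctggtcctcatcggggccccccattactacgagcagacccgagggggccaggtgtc
ITGAX and ITGAD: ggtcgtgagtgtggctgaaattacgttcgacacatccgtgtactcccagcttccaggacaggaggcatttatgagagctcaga
Without the 7 genes, 8 of 22 members were higher in EC (36.4%, beside 19.2% of all genes) and 7 in TB (31.8%, beside 26.2%), so the 2 counts came close. The shares of all genes were taken without this filter, so they still include genes with such values. ITGA5, ITGA9, ITGA10, ITGB6, LAMA1, LAMA4 and LAMA5 had under 12% of their entries between 0 and 20 not whole.

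Some of the members that lie side by side in the genome were compared. ITGA1 and ITGA2 are 30.1 kb apart on chromosome 5, and ITGA1 was 18.96-fold higher in EC while ITGA2 was within 1.07-fold. LAMB1 and LAMB4 are 20.3 kb apart on chromosome 7, and LAMB1 was 2.42-fold higher in TB while LAMB4 was within 1.10-fold. Each pair lies on the same strand. ITGA1, ITGA2 and LAMB4 are among the genes above whose low values were mostly not whole. What shared reads add to their ratios was not tested.

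The 250 bases before the start of 4 genes that were high in a single type are shown, from RefSeq on GRCh38.p14, 5′ to 3′ on the strand of the gene. Capitals mark matches to 5 motifs that were searched on both strands, with overlaps between motifs allowed. The GC box was searched as GGGCGG and the core bound by ETS factors as CCGGAA. The motif of GATA factors was searched as AGATAA, that of AP-2 factors as GCCNNNGGC and the box of core promoters as TATAAA. ITGA5 and ITGA10 were higher in EC, and ITGB6 and LAMA5 higher in TB. The windows are chr12:54419267-54419516 for ITGA5, chr1:145910051-145910300 for ITGA10, chr2:160200273-160200522 for ITGB6 and chr20:62367313-62367562 for LAMA5, all on the minus strand:
ITGA5: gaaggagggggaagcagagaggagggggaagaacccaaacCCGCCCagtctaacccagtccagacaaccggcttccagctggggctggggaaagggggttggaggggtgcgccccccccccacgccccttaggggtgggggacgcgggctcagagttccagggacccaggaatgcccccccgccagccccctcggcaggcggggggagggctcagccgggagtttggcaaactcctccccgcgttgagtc
ITGA10: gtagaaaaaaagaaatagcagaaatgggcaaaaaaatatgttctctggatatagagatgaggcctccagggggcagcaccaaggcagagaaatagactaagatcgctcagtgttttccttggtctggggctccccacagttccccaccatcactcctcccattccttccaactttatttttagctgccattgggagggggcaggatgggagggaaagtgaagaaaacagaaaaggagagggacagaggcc
ITGB6: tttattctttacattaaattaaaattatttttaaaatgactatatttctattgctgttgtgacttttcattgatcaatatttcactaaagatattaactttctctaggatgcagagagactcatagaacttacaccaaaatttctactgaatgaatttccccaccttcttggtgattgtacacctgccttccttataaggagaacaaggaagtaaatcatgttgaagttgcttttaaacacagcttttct
LAMA5: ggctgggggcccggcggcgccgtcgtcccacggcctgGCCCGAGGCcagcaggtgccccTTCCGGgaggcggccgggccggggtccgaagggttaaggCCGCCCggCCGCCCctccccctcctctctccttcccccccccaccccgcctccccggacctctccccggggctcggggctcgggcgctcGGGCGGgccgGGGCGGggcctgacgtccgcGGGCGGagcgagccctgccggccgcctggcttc
The base composition of the 4 differed widely, with 70% G and C for ITGA5, 48.4% for ITGA10, 30% for ITGB6 and 82.8% for LAMA5, beside a median of 62.8% over 12986 genes. The LAMA5 window held 5 GC boxes, 1 ETS core and 1 AP-2 match, and the ITGB6 window held 0 CpG and no match. Of 26 members with a sequence in the table, 13 held a GC box, beside 58.0% of all windows, 4 an ETS core, beside 19.9%, 5 an AP-2 match, beside 25.0%, 1 a GATA match, beside 6.74%, and 1 a TATA box, beside 8.50%. These are matches of letters, and no binding was measured.

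Partners of integrins and laminins were taken from lists. Over all genes 19.2% were more than 2-fold higher in EC and 26.2% in TB, and the counts of the lists are to be read beside these shares. Of 13 tested basement membrane partners, 4 were more than 2-fold higher in EC and 4 in TB. The laminin-binding linker NID1 was 157 ± 205 CPM in EC and 1.76 ± 9.84 in TB, and the type IV collagen chain COL4A1 was 326 ± 285 and 5.10 ± 18.6. SPARC, a collagen-binding matrix protein, was high in both, and FREM2 and FRAS1, which join epithelium to its basement membrane, were 3.47-fold and 3.52-fold higher in TB. Of 3 tested laminin receptors that are not integrins (BCAM, SDC4 and RPSA), 3 were higher in TB, by 33.2-fold, 4.40-fold and 2.22-fold. DAG1 and SDC1 were also on that list but have no entry among the listed genes, so the list is incomplete.

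Of 18 tested integrin ligands, 6 were higher in EC and 6 in TB. FN1, fibronectin, the ligand of ITGA5 with ITGB1, was 1418 ± 1534 CPM in EC and 353 ± 322 in TB, a 4.02-fold difference, and NRP1 was 2.36-fold higher in EC. EDIL3 and ICAM1, which bind ITGAV and ITGB2 integrins, were 16.2-fold and 10.3-fold higher in EC. THBS1, thrombospondin, was 90.1-fold higher in TB, and TGFB2, a transforming growth factor, averaged 23.2 ± 57.2 CPM in TB and 0.0401 ± 0.139 in EC. NPNT, the ligand of ITGA8 with ITGB1, was 37.5 ± 68.8 CPM in TB and 0.128 ± 0.327 in EC.

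Of 29 tested cytoplasmic partners, 9 were higher in EC and 7 in TB. The adaptors PARVB and LIMS1, which bind ILK, were 5.63-fold and 4.46-fold higher in EC, and ILK itself was within 1.03-fold. VCL, vinculin, was 1.59-fold higher in EC and DST, dystonin, 2.10-fold higher in TB. FERMT1, the kindlin of epithelia, was 25.6 ± 68.6 CPM in TB and 0.0502 ± 0.150 in EC, and TNS3, a tensin, was 8.72-fold higher in TB.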

How the data were processed

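Full-length cDNA of single H1-derived EC and TB cells was captured on a Fluidigm C1 and sequenced in 288 libraries, 96 in each of 3 experiments. The values are expected counts per gene, which the authors made with RSEM 1.2.31 and Bowtie 1.2.3 on GRCh38 with Ensembl protein-coding genes, from reads trimmed to 51 bp with at most 2 mismatches, as deposited. CASAVA 1.8.2 is named in the submitters' processing notes. RSEM divides reads among genes that share sequence, and no molecular identifiers were used, so intervals and floors cover counting error only. Every column of the tables belongs to a labelled sample.

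Expected counts were rounded. Libraries with a log10 total under 5.4 or over 31% of counts in the 50 top genes were left out, 29 of 288 in all, which left 38, 38 and 39 EC and 48, 46 and 50 TB cells in EQ, EQ-Vary and EQ-75%. Median totals were 1499284 to 2025145 counts. Counts were scaled to CPM. EC and TB are 1 sample each per experiment, so no test between them was made. Genes with an average of at least 1 CPM over EC and TB were compared by the ratio of mean CPM with a limit of 2-fold. Against a group at 0 counts, a floor of 3 counts over the group gave a bound, and groups with 1 to 3 counts in EQ were given as a ratio of summed counts with its interval. Shares of cells have exact binomial intervals at 95%. For a share of 0 cells, 3 cells of the group were also given as a limit. Experiments were compared over the same cells, since the labels number the cells and the paper states that the cDNA is the same. The lowest correlation of same-numbered libraries was 0.845 and the highest of other numbers 0.282.

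Members with a mean of at least 1 CPM in EC or TB were described with values, except for an item that is not reported here, and genes of the partner lists were named by level and ratio (per list the 3 highest by average level and the 2 largest ratios in each direction at an average of at least 10 CPM), beside genes the text needs for a check, which were chosen after their values were seen. Cell type marker lists were given as counts and sums. Members and lists were chosen with earlier results of these data known. Cell-to-cell variance was set against a trend over all genes with scran 1.30.0. Alternatives were scran and edgeR 4.0.16 TMM factors, medians, summed counts, all 96 cells, other minima and limits, thinning to 250000 counts and a count of at least 5. Leaving out the members that share reads, union exon length and a minimum for the leading chain were added after seeing the data. Steps were tested on simulated data. Python 3.11.15 and R 4.3.3 were used, coordinates are from GENCODE v44 and shared 51-base stretches were sought with bwa 0.7.19.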

Additional observations from a re-analysis of the deposited data

How the results depend on the processing

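The EC and TB calls of members kept their counts within 1.5 times under most settings, and 22 of 29 members stayed on the same side of 2-fold under the 9 settings compared. By the median over cells, 6 of 22 members were higher in EC, instead of 12 of 29, and 8 in TB instead of 7. With all 96 cells, including those outside the limits, the sizes of several ratios moved by more than 1.5 times without a change of side: ITGB6 from log2 -8.70 to -5.36, ITGA10 from 10.44 to 4.96, ITGB4 from -6.73 to -1.03, LAMA1 from -6.50 to -4.67 and LAMA5 from -4.68 to -2.55. ITGAV passed 2-fold in EQ-75% (log2 1.12) and with scran factors (log2 1.08). The largest changes of direction were for ITGA3 without its highest cell (log2 -2.51), ITGA6 by medians (log2 -1.08) and LAMA2 without its highest cell (log2 1.89), all of which were within 2-fold before. Smaller changes of sign among members within 2-fold included ITGAE (-0.88) and ITGA2 (0.72) by medians, ITGAL with all 96 cells (-0.13) and LAMB2 with TMM factors (0.12). Members with a count per cell went from 20.1 to 15.0 in EC and 15.1 in TB with a count of at least 5, and to 15.0 in each when thinned to 250000 counts. With a pseudocount of 10 the median SD between libraries was 0.185 in EC and 0.171 in TB. The median log2 ratio of all genes was -0.06 with CPM, -0.0099 with scran and 0.02 with TMM factors. Without the replicate block, that is without pairing the cells by number, the difference in members counted between EQ-75% and EQ was -1.54 in EC and -0.545 in TB, and between EQ-Vary and EQ -0.5 and -0.429. The cause of these changes was not tested. Leaving out a whole EC or TB sample was not possible with 1 per type. Depth limits the genes with few counts, whose ratios have wide intervals.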
